A study of Rattus norvegicus with 11 samples.

Results

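Integrin alpha V (Itgav, also known as Cd51), its partner beta subunits Itgb1, Itgb3, Itgb5, Itgb6 and Itgb8, and the alpha 5 subunit Itga5 were followed across 4 groups of rat calvarial defects. These 7 genes were chosen by symbol from the 23781 genes of the count and FPKM tables, and the question was which beta subunit follows Itgav. FPKM is the fragment count of a gene scaled by its length and by the library total. The tissue came from male Sprague Dawley rats aged 4 months with a suture-bony composite defect cut across the coronal suture, the fibrous joint between the frontal and parietal bones. NC defects received no scaffold, GelMA defects a hydrogel of methacrylated gelatin, CTS defects a porous chitosan scaffold crosslinked with tripolyphosphate, and PLA defects an electrospun membrane of poly(L-lactide). Nascent tissue was taken 6 weeks after surgery and digested with collagenase. Its cells were fixed, permeabilised and stained for Cd45, the common leukocyte antigen, and the Cd45- cells were sorted for RNA-seq, with 3 libraries each for NC, GelMA and CTS and 2 for PLA. The labels do not say whether the libraries of a group came from separate animals, so p-values measure the spread between these libraries, which may be technical.

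Integrins are surface receptors built from 1 alpha and 1 beta subunit, and neither chain reaches the cell surface without the other. Alpha V is a promiscuous chain that pairs with beta 1, 3, 5, 6 or 8, whereas alpha 5 pairs with beta 1. The resulting receptors bind the short RGD peptide motif in matrix proteins such as fibronectin, vitronectin and osteopontin, and those with beta 6 or beta 8 also bind the latent form of TGF-beta. Cd51 is used as a surface marker of skeletal stem and progenitor cells, and alpha V beta 3 is the abundant integrin of osteoclasts, the cells that resorb bone. Beta 1 pairs with many alpha subunits, so its level is not a measure of alpha V partners alone.

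Promoter sequence was at hand in RefSeq for 6 of the 7 genes, on the build GRCr8, whereas the counts were made on mRatBN7.2. The 250 bases upstream of the start are shown for Itgav and for the 3 members around which the results turn, Itgb1 as the most abundant partner and Itgb8 and Itga5 as the others called different in PLA. They lie at chr3:89245132-89245381 on the plus strand for Itgav, chr19:73602027-73602276 on the plus strand for Itgb1, chr6:146351246-146351495 on the minus strand for Itgb8 and chr7:136381306-136381555 on the minus strand for Itga5. Each is written 5′ to 3′ on the strand of its gene, and capitals mark GGGCGG (the GC box) or CGGAAG (the core of an ETS site) on either strand.
Itgav: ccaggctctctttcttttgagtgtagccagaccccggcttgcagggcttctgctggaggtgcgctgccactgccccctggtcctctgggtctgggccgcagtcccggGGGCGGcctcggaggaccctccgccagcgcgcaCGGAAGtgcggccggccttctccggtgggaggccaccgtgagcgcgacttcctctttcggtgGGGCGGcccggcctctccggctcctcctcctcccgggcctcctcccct
Itgb1: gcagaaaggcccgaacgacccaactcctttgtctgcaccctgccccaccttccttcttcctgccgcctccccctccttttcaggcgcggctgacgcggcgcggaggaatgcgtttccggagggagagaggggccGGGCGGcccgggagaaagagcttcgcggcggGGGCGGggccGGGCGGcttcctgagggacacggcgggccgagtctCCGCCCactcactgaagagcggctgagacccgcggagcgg
Itgb8: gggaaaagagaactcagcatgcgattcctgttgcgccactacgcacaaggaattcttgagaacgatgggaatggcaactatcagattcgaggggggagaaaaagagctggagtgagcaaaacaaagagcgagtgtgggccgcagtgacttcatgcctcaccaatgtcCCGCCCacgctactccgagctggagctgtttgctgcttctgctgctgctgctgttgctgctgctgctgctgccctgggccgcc
Itga5: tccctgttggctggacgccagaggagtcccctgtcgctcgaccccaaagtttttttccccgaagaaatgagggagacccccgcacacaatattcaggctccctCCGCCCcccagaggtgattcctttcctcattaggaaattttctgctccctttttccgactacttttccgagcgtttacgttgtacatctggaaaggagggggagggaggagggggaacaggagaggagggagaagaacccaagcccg
The GC content was 72.0% for Itgav, 71.2% for Itgb1, 56.4% for Itgb8 and 55.6% for Itga5, against a median of 51.2% over 33469 rat promoters of the same length. GGGCGG matched 2 times in the Itgav promoter, 4 times in that of Itgb1 and 1 time each in those of Itgb8 and Itga5, and 30.5% of all promoters held it. CGGAAG matched 1 time, in the Itgav promoter, and 13.9% of all promoters held it. Of the other letters searched on both strands, CCAAT matched 1 time, in the Itgb8 promoter, and was held by 34.0% of all promoters. TGANTCA and TATAAA had no match in any of the 6 promoters and were held by 6.34% and 12.9% of all. The letters searched were chosen after the sequences were seen, so the matches are a description only. A match is a run of letters and does not show a site in use.

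Library totals ran from 22509898 to 27522199 counts in NC and from 28377088 to 31290849 in the other 3 groups. NC replicate 2 stood apart: 6 fibroblast markers, among them Col1a1, Col1a2 and Col3a1, summed to 226170 CPM (counts brought to a common library size with TMM factors) there, against 9135 to 36937 in the other 10 libraries. The sorted cells were labelled Cd45-, yet Ptprc, which encodes Cd45, was at 336 CPM in NC replicate 2 and at 1020 to 1460 CPM in the other 10 libraries, so leukocyte RNA was present in every group. In PLA the 8 macrophage markers summed to 3939 and 4564 CPM, against 2573 to 12677 in the other libraries, but most of this sum was Lyz2. By edgeR 4 of the 8 were called higher in PLA than in NC (8.32% of all genes), with Adgre1 at 78.2 against 11.2 CPM on average. Against GelMA 2 were called lower (1.47% of all genes), and against CTS 2 were called higher (6.42% of all genes). The 6 neutrophil markers summed to 8437 and 9018 CPM in PLA, against 4670 to 64355, mostly S100a8 and S100a9. Against NC and against CTS alike, 3 of the 6 were called lower and 1 higher, which was Csf3r (869 CPM on average in PLA, 235 in NC and 285 in CTS). Of all genes, 4.01% and 3.53% were called lower than in NC and CTS, and 8.32% and 6.42% higher. In such bulk samples, fewer cells of a type and less RNA per cell cannot be told apart.

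Itgav itself was far higher in PLA than in the other groups. Its FPKM was 99.3 and 108 in PLA, against 11.4, 18.7 and 14.99 in NC, 17.1, 21.1 and 24.98 in GelMA and 11.3, 13.1 and 16.9 in CTS. Both PLA libraries lay above all 9 others. The NC values overlapped those of GelMA and of CTS, and in FPKM the 3 GelMA values lay just above the 3 CTS values. After TMM scaling GelMA (108 to 161 CPM) and CTS (75.3 to 114 CPM) overlapped. By the edgeR quasi-likelihood test with Benjamini-Hochberg adjustment over the 18049 genes tested, PLA was 8.35-fold higher than NC (log2 fold change 3.06 ± 0.32 SE, adjusted p = 0.0002157), 7.12-fold higher than GelMA (2.83 ± 0.32, adjusted p = 0.0007505) and 10.5-fold higher than CTS (3.39 ± 0.32, adjusted p = 0.0001637). These 3 comparisons share the PLA libraries. Without NC replicate 2 the log2 fold change against NC was 3.44. Among the other groups Itgav was not called different, with log2 fold changes of 0.23 for GelMA against NC (adjusted p = 0.635), -0.33 for CTS against NC (adjusted p = 0.679) and -0.56 for CTS against GelMA (adjusted p = 0.353). The 5 pericyte and smooth muscle markers, among them Rgs5 and Acta2, also summed higher in PLA, to 385 and 560 CPM against 89.8 to 298 in the other libraries. Of the 5, 2, 1 and 1 were called higher than in NC, GelMA and CTS (8.32%, 4.61% and 6.42% of all genes). Their part in the Itgav result was not tested.

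**Figure D1:**
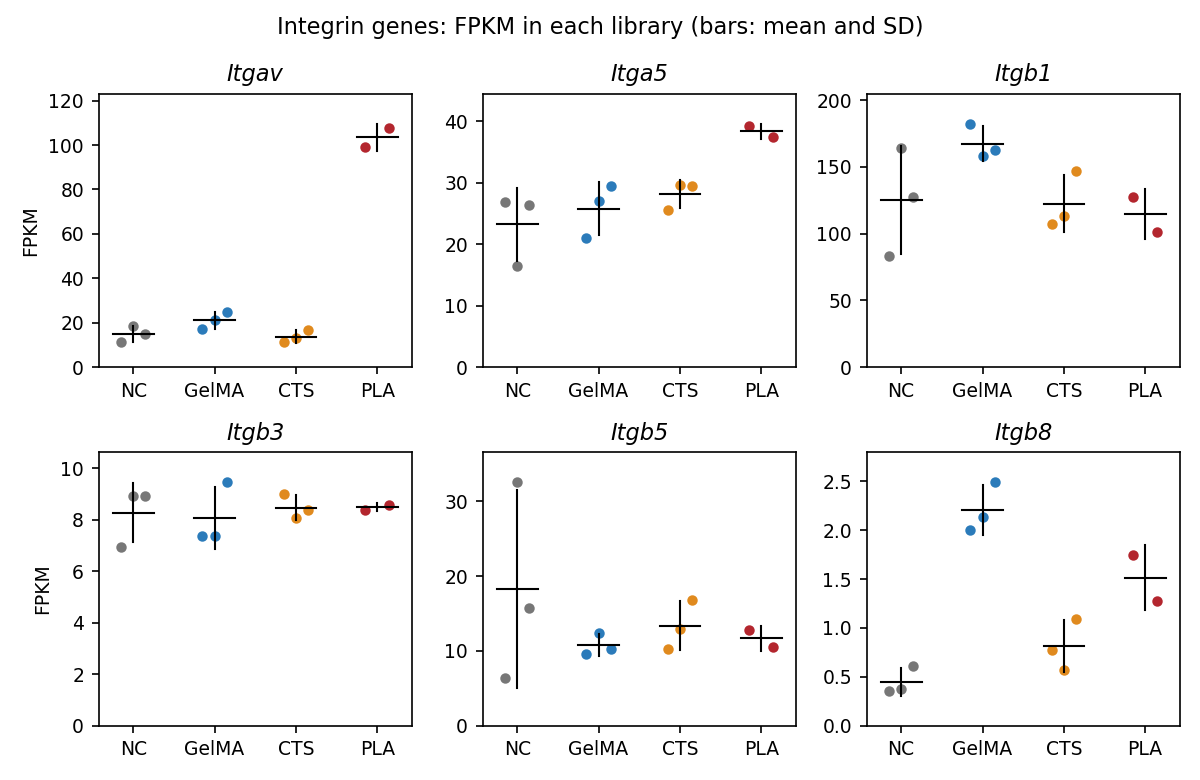
FPKM of the 6 tested integrin genes in the 11 libraries, with 1 panel a gene, points for libraries, and bars for the group mean and SD. Itgav stood at 99.3 and 108 FPKM in PLA and at 11.3 to 24.98 in the other 9 libraries, whereas the Itgb1, Itgb3 and Itgb5 values of PLA lay within the range of the other groups.

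The beta partners did not share this pattern. Itgb1, the partner common to most integrins, was the most abundant of the 7 genes in each group's mean. Its FPKM was 128 and 101 in PLA, 83.3, 164 and 128 in NC, 182, 158 and 162 in GelMA and 107, 113 and 147 in CTS. The PLA values lay inside the NC range and below all 3 GelMA values on this scale. After TMM scaling the log2 fold change of PLA was 0.14 ± 0.33 (SE) over NC (adjusted p = 0.821), -0.01 ± 0.33 over GelMA (adjusted p = 0.992) and 0.38 ± 0.33 over CTS (adjusted p = 0.498). With library size alone as the scale, which moved the median log2 fold change of all genes to -0.433, -0.578 and -0.509, the same differences were -0.13, -0.55 and -0.10. Without single libraries the value over NC ran from -0.12 to 0.58.

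Itgb3, the partner of alpha V on osteoclasts and of alpha IIb on platelets, was nearly level across the groups in FPKM. Its FPKM was 8.36 and 8.58 in PLA, 6.94, 8.93 and 8.92 in NC, 7.35, 7.35 and 9.44 in GelMA and 8.99, 8.06 and 8.35 in CTS. The groups overlapped in FPKM. After TMM scaling both PLA libraries (36.6 and 37.99 CPM) lay above all of GelMA (21.96 to 28.8) and CTS (25.3 to 28.4) and overlapped NC (22.7 to 37.96). The edgeR log2 fold changes of PLA were 0.34 over NC (adjusted p = 0.343), 0.61 over GelMA (adjusted p = 0.115) and 0.48 over CTS (adjusted p = 0.183), each ± 0.22 (SE). With library size alone the same values were 0.04, 0.07 and 0.0008. The 5 osteoclast markers in the table summed to 300.2 and 349 CPM in PLA and to 97.1 to 649 in the other libraries, mostly Ctsk. Of the 5, 2 were called higher than in NC (Acp5 and Oscar), 1 higher than in GelMA (Oscar), and 1 higher (Oscar) and 1 lower (Ocstamp) than in CTS. Of all genes, 8.32%, 4.61% and 6.42% were called higher in these comparisons, and 3.53% lower than in CTS. Oscar, an osteoclast receptor, stood at 92.2 and 92.3 CPM in PLA against 4.70 to 30.4 in the other libraries, whereas Calcr, the calcitonin receptor, had 0 counts in both PLA libraries.

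Itgb5, whose receptor with alpha V binds vitronectin, varied most within NC. Its FPKM was 12.9 and 10.5 in PLA, 6.41, 32.5 and 15.7 in NC, 9.59, 12.4 and 10.3 in GelMA and 10.3, 12.9 and 16.8 in CTS. The value of 32.5 came from NC replicate 2, the library with the highest fibroblast marker sum, and the part of those cells in it was not tested. No Itgb5 comparison was called in the fit to all 11 libraries. The PLA log2 fold changes were -0.43 ± 0.59 (SE) over NC (adjusted p = 0.675), 0.66 ± 0.58 over GelMA (adjusted p = 0.525) and 0.29 ± 0.58 over CTS (adjusted p = 0.797), and the value against CTS was -0.19 with library size alone. For GelMA against NC it was -1.09 (adjusted p = 0.209), and without NC replicate 1 it was -1.52 and called lower (adjusted p = 0.0273), but without NC replicate 2 it was -0.11 (adjusted p = 0.849). Without NC replicate 2 the PLA value over NC turned to 0.55 (adjusted p = 0.301).

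Itgb8, the low-abundance partner that binds latent TGF-beta, was the beta subunit with called differences. Its FPKM was 1.75 and 1.28 in PLA, 0.352, 0.375 and 0.610 in NC, 2.00, 2.13 and 2.49 in GelMA and 0.771, 0.569 and 1.10 in CTS. In FPKM GelMA thus had the highest values, followed by PLA and then by CTS and NC, which overlapped each other. After TMM scaling GelMA (14.6 to 18.5 CPM) and PLA (18.7 and 13.8 CPM) overlapped. PLA was higher than NC (log2 fold change 2.10 ± 0.32 SE, adjusted p = 0.002076) and than CTS (1.37 ± 0.32, adjusted p = 0.01914), while its difference from GelMA was -0.01 ± 0.32 (adjusted p = 0.993) with TMM and -0.55 with library size alone. GelMA was 4.31-fold higher than NC (2.11 ± 0.30, adjusted p = 0.002469), and CTS was lower than GelMA (-1.38 ± 0.29, adjusted p = 0.04247). The call against NC was lost with limma on log2(FPKM + 1), with or without the filter, where the change was 0.80 and short of the fold threshold. The call against CTS was lost with library size alone and the 3 FPKM fits, and without CTS replicate 1 or 2 or without either PLA replicate (adjusted p = 0.0596 to 0.163), and that of CTS against GelMA without any 1 of 8 libraries, namely NC replicate 3, the 3 GelMA replicates, CTS replicates 1 and 2 and both PLA replicates (adjusted p = 0.0578 to 0.178). The marker values that follow are in CPM, the scale on which Itgb8 overlapped between GelMA and PLA. On it the 3 T cell markers were highest in GelMA and next in PLA. They summed to 268 to 318 CPM in GelMA, 95.2 and 102 in PLA, 19.3 to 67.1 in CTS and 10.98 to 18.6 in NC. The 4 platelet and megakaryocyte markers summed to 14.9 to 24.3 CPM in GelMA, 15.7 and 16.7 in PLA, 4.69 to 5.64 in CTS and 2.99 to 5.98 in NC. Most of this was Pf4, at 19.7, 15.6, 4.63 and 4.44 CPM on average in GelMA, PLA, CTS and NC. Ppbp and Gp9 did not pass the low-count filter, and Treml1 averaged at most 0.344 CPM in a group. Itga2b, the platelet alpha IIb chain, ran otherwise, at 1.20 CPM in GelMA, 0.932 in PLA, 2.30 in CTS and 3.20 in NC. Among the macrophage markers, Adgre1 averaged 236 CPM in GelMA, 78.2 in PLA, 19.95 in CTS and 11.2 in NC. Mrc1 and C1qa were also highest in GelMA and next in PLA. The other macrophage markers did not keep this order. Cd68, Csf1r, Cd163 and Lyz2 averaged lower in PLA than in CTS, and Cd14 was highest in PLA (438 CPM against 376 in GelMA). Of the 8, 6 were called higher in GelMA than in NC (5.03% of all genes) and 2 lower in CTS than in GelMA (1.32% of all genes). The 4 B cell markers were highest in GelMA too, but CTS lay above PLA. They summed to 215 to 309 CPM in GelMA, 55.5 to 83.7 in CTS, 23.3 and 37.5 in PLA and 15.6 to 30.3 in NC. The part of all these cells in the Itgb8 result was not tested.

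Itgb6, the epithelial partner of alpha V, was barely detected and did not pass the low-count filter, so 6 of the 7 genes were tested. Its counts were 6, 0 and 5 in NC, 10, 10 and 8 in GelMA, 0 in each CTS library, and 4 and 0 in PLA. At these depths a count of 0 still allows up to 0.0959, 0.103 and 0.106 CPM (3 counts of the library total, counting error only) in the 3 CTS libraries. The 2 epithelial markers in the table, Epcam and Cdh1, summed to 4.34 to 19.4 CPM in NC, GelMA and CTS and to 19.5 and 37.6 CPM in PLA. Nearly all of this was Cdh1 (28.4 CPM on average in PLA), while Epcam averaged 0.166 CPM in PLA, 0.211 in CTS, 0.597 in NC and 1.06 in GelMA.

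Counted over the tested members, 3 of 6 were called higher in PLA than in NC (Itgav, Itgb8 and Itga5) where 8.32% of all genes were called higher, 2 of 6 higher than in GelMA (Itgav and Itga5; 4.61% of all genes) and 2 of 6 higher than in CTS (Itgav and Itgb8; 6.42% of all genes). Calls needed both a change over 2-fold (1 on the log2 scale) and an adjusted p below 0.05. In the lower direction edgeR and DESeq2 called 0 of 6 in each of these comparisons, where edgeR called 4.01%, 1.47% and 3.53% of all genes lower, and 0 members were lower at an unadjusted p under 0.05. For GelMA against NC 1 of 6 was called higher (Itgb8; 5.03% of all genes), and for CTS against GelMA 1 of 6 was called lower (Itgb8; 1.32% of all genes). For CTS against NC edgeR called 0 of 6 in either direction, where 0.177% of all genes were called, DESeq2 also called 0, and 1 member, Itgb8, had an unadjusted p under 0.05. The calls of Itga5 and of Itgb8 against CTS depended on the scale and on single libraries. With library size alone, Itgav was the 1 member called against GelMA and against CTS. The members, Itgav among them, were chosen with earlier results of these data known, so these counts are a description only.

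Whether a partner followed Itgav was tested on the difference itself, that is on log2 CPM of Itgav minus log2 CPM of each other gene in the same library, which does not depend on how libraries are scaled. All 5 tested members differed from Itgav in all 3 PLA comparisons by this limma test with adjustment over 18048 genes. Of all genes, 84.7% did so in the NC comparison, 85% in that with GelMA and 90.4% in that with CTS, so a count of 5 of 5 lies near that background. A gene that did not pass this test was not thereby shown to move with Itgav. Against NC, the log2 change of Itgav exceeded that of Itgb1 by 2.89 ± 0.35 (SE, adjusted p = 5.532e-06), that of Itgb3 by 2.77 ± 0.32 (adjusted p = 4.573e-06) and that of Itgb5 by 3.16 ± 0.42 (adjusted p = 1.083e-05). The gap was smaller for Itgb8, at 1.04 ± 0.42 (adjusted p = 0.03076), and was 2.05 ± 0.40 for Itga5 (adjusted p = 0.0002872). The Itgb8 gap against NC missed the threshold without NC replicate 3 (0.80, adjusted p = 0.112), without PLA replicate 2 (0.75, adjusted p = 0.222) and when the 2 groups were fitted alone (1.04, adjusted p = 0.113). Against GelMA the gap to Itgb8 was 2.87 (adjusted p = 2.68e-05), the same as that to Itgb1 at this precision, and against CTS it was 2.00 (adjusted p = 0.0004261). For Itga5 it was 1.73 against GelMA (adjusted p = 0.00123) and 2.48 against CTS (adjusted p = 4.86e-05).

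**Figure D2:**
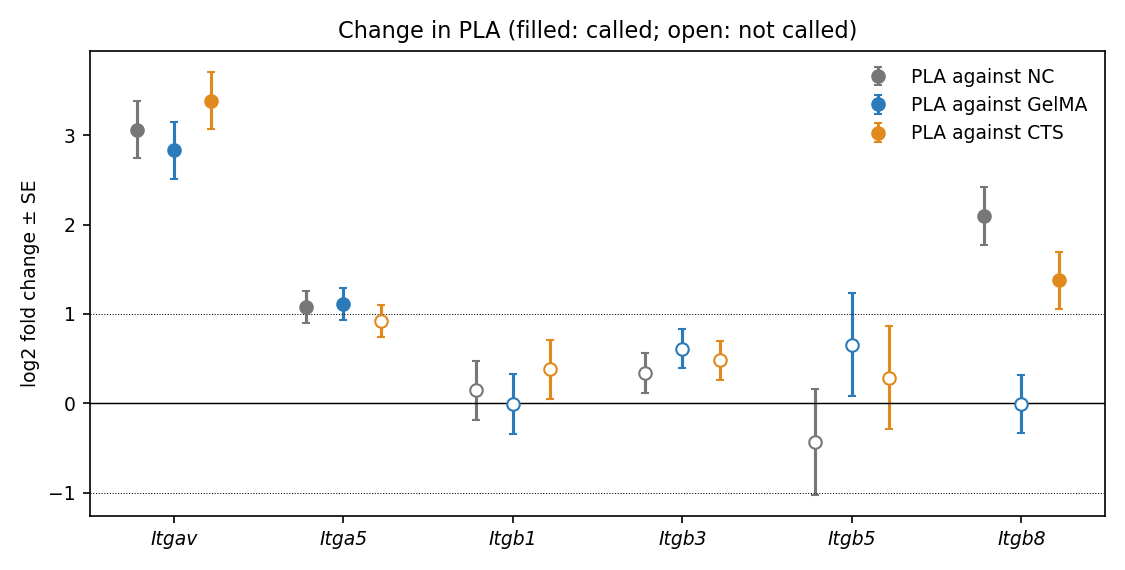
Log2 fold change of PLA against NC, GelMA and CTS for the 6 tested members, from the edgeR fit, with bars of 1 SE, filled points for calls, open points for values not called and dotted lines at the fold threshold. Itgav lay at 2.83 to 3.39 in all 3 comparisons, Itgb8 at 2.10, -0.01 and 1.37, and Itga5 at 0.92 to 1.11.

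In levels per gene length, the balance between alpha V and its partners shifted accordingly. Itgav FPKM over Itgb1 FPKM was 0.777 and 1.06 in PLA and 0.0940 to 0.154 in the other 9 libraries. Over Itgb3 the ratio was 11.9 and 12.6 in PLA and 1.26 to 2.87 elsewhere. Over Itgb5 it was 7.72 and 10.2 in PLA and 0.575 to 2.43 elsewhere. Over Itgb8 it was 56.7 and 84.4 in PLA, 24.6 to 49.9 in NC, 8.55 to 10.03 in GelMA and 14.7 to 23.0 in CTS. In each of these 4 ratios both PLA libraries lay above the other 9, and Itgb8 left the narrowest space to the next library, NC replicate 2.

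**Figure D3:**
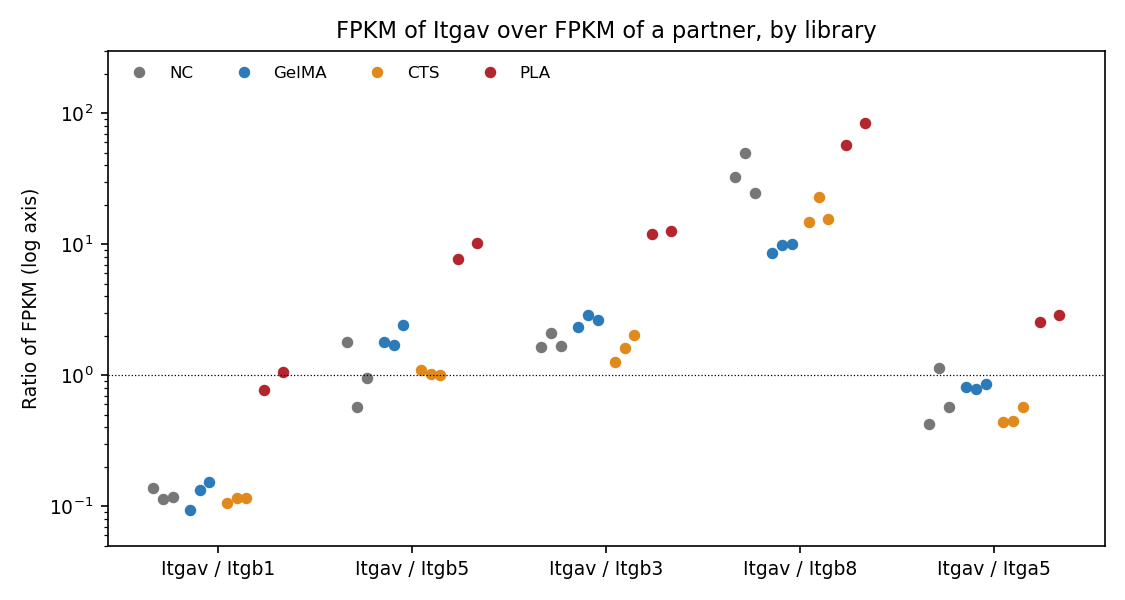
FPKM of Itgav divided by that of Itgb1, Itgb3, Itgb5, Itgb8 or Itga5 in each library, on a log axis with a dotted line at equal FPKM. The 2 PLA libraries lay above the other 9 for each partner, from 0.777 and 1.06 against 0.0940 to 0.154 for Itgb1 to 56.7 and 84.4 against 8.55 to 49.9 for Itgb8.

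The summed FPKM of the 5 beta partners was 136 ± 20.5 (SD, n = 2) in PLA, 152 ± 54.5 (n = 3) in NC, 189 ± 11.2 (n = 3) in GelMA and 145 ± 24.6 (n = 3) in CTS. Itgav amounted to 0.772 ± 0.160 of that sum in PLA, against 0.102 ± 0.0138 in NC, 0.113 ± 0.0254 in GelMA and 0.0947 ± 0.00501 in CTS. Itgb1 made up 79.7% to 90.6% of the sum over all libraries, with 83.3% and 84.8% in PLA. Because Itgb1 has other alpha partners, the sum was also taken without it. Itgav FPKM was 4.803 ± 0.687 times the sum of Itgb3, Itgb5, Itgb6 and Itgb8 in PLA, and 0.623 ± 0.193, 0.995 ± 0.115 and 0.606 ± 0.0404 times that sum in NC, GelMA and CTS. By library the ratio was 4.32 and 5.29 in PLA, and it was above 1 in 1 other library, GelMA replicate 3 (1.12). These are levels of mRNA, and protein pairs were not measured.

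Itga5, the alpha subunit of the fibronectin receptor, showed a smaller difference of the same sign. Its FPKM was 39.2 and 37.5 in PLA, 26.9, 16.4 and 26.4 in NC, 21.0, 27.0 and 29.4 in GelMA and 25.6, 29.5 and 29.5 in CTS. Both PLA libraries lay above the other 9. The log2 fold change was 1.08 ± 0.18 (SE, adjusted p = 0.003231) against NC, 1.11 ± 0.18 (adjusted p = 0.005024) against GelMA and 0.92 ± 0.18 (adjusted p = 0.008502) against CTS, the last short of the fold threshold. Without NC replicate 2 the value against NC was 0.99 and also short of it. The call against GelMA was lost without GelMA replicate 1 (0.95) or PLA replicate 1 (1.08, where the p threshold was missed). Both calls were lost with library size alone (0.72 and 0.57, adjusted p = 0.0544 and 0.104). They were also lost with the 3 FPKM fits, where the values were 0.73 to 0.76 against NC and 0.57 to 0.58 against GelMA. The call against NC was lost as well when these 2 groups were fitted alone in edgeR (adjusted p = 0.061).

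Among the 13 alpha subunits other than Itgae and those that pair with beta 2, summed FPKM was 180 ± 0.155 (SD) in PLA, against 84.3 ± 6.37 in NC, 98.6 ± 5.33 in GelMA and 89.9 ± 8.76 in CTS. Itgav took 55.2% and 60.0% of this sum in PLA, 14.8% to 21.2% in NC, 18.1% to 23.9% in GelMA and 13.7% to 18.1% in CTS. Itga5 took 21.8% and 20.9% in PLA and 18.5% to 34.9% in the other libraries. By mean FPKM the order of the members in PLA was Itgb1 (115 ± 18.7), Itgav (104 ± 6.01), Itga5 (38.4 ± 1.20), Itgb5 (11.7 ± 1.65), Itgb3 (8.47 ± 0.153), Itgb8 (1.51 ± 0.334) and Itgb6. Itgb1 and Itgav were within their spread of each other there. In NC the order was Itgb1 (125 ± 40.5), Itga5 (23.2 ± 5.91), Itgb5 (18.2 ± 13.2), Itgav (15.04 ± 3.65), Itgb3 (8.26 ± 1.14), Itgb8 (0.446 ± 0.143) and Itgb6, with Itga5, Itgb5 and Itgav overlapping. In GelMA, Itga5 (25.8 ± 4.30) and Itgav (21.1 ± 3.93) overlapped, and in CTS, Itgav (13.8 ± 2.87) and Itgb5 (13.4 ± 3.29).

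As a description of likeness, each gene's log2 CPM was centred on its mean over the 11 libraries and compared with Itgav by the root mean square difference, over the 9663 genes whose log2 CPM averaged 3 or more. The nearest were Fnip2 (0.191), a folliculin-interacting protein, the transcription factor Ets2 (0.219), Lss (0.227), which encodes the lanosterol synthase of cholesterol synthesis, the lysosomal transporter Spns1 (0.228) and the kinase Map4k4 (0.243). Fnip2 averaged 1016 CPM in PLA against 139, 135 and 95.4 in NC, GelMA and CTS, and Map4k4 2397 against 238, 298 and 209. The median over all ranked genes was 1.33. The members lay much farther from Itgav than these 5 genes, at 0.913 for Itga5, 1.06 for Itgb8, 1.07 for Itgb3, 1.15 for Itgb1 and 1.22 for Itgb5. Of the ranked genes, 7.47% were closer to Itgav than Itga5, 15.4% than Itgb8, 16% than Itgb3, 23.2% than Itgb1 and 31.8% than Itgb5. The libraries share depth and composition, and a small distance says nothing of shared control.

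**Figure D4:**
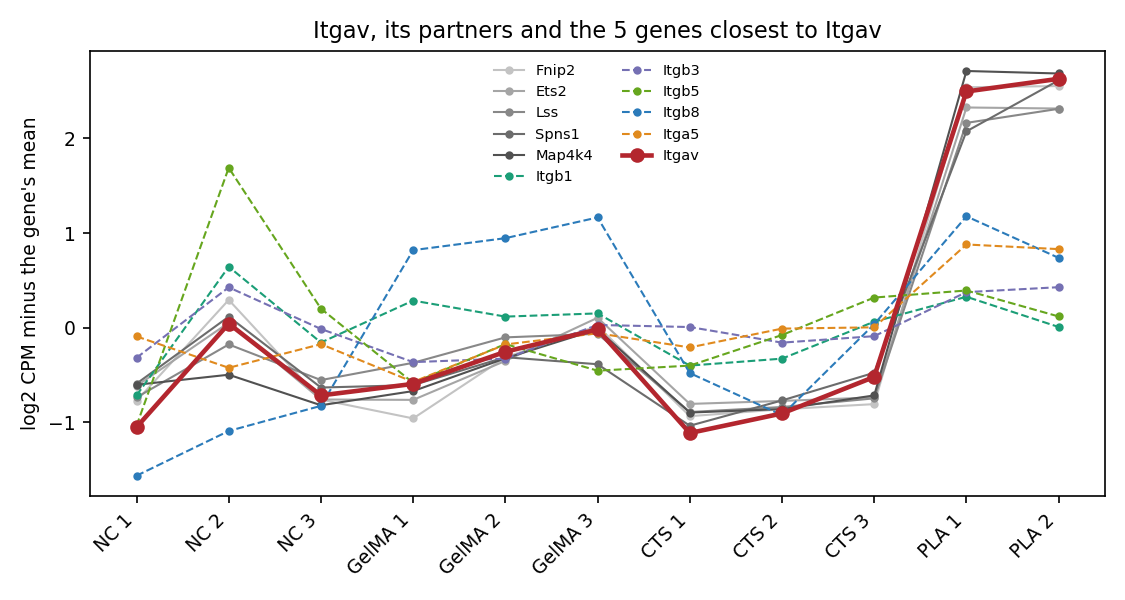
Log2 CPM of Itgav, of the 5 genes nearest to it and of the other tested members in the 11 libraries, each centred on its own mean, with lines that only guide the eye. The 5 nearest genes follow Itgav within 0.191 to 0.243 (root mean square, log2), and the members lie at 0.913 to 1.22.

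Of the other 16 alpha subunits, 4 were called higher in PLA than in NC, 1 higher and 1 lower than in GelMA and 4 higher than in CTS. Of all genes, 8.32% were called higher against NC, 4.61% higher and 1.47% lower against GelMA, and 6.42% higher and 3.53% lower against CTS, so the counts against GelMA were near that background. The median log2 fold changes were 0.32, 0.56 and 0.57 against -0.11, -0.04 and -0.03 over all genes. Itga1, a collagen-binding subunit, was called in all 3 comparisons, at 105 ± 35.1 CPM in PLA (80.2 and 130) against 43.3 to 58.3 in the other libraries (log2 fold changes 1.03, 1.14 and 1.17), but each call was lost without PLA replicate 1, where they were 0.64 to 0.78, and that against NC was lost without any 1 of 9 libraries. Itgax, the Cd11c chain of myeloid cells, was called against NC (1.75, adjusted p = 0.02657) and CTS (1.52, adjusted p = 0.04957). Itga8, another RGD-binding subunit, was called against NC (1.12, adjusted p = 0.03776) and CTS (1.36, adjusted p = 0.01935), Itgae, a lymphocyte subunit, against NC (1.41, adjusted p = 0.02733) and the laminin-binding Itga7 against CTS (1.38, adjusted p = 0.04827). Itga4, a leukocyte subunit, was lower than in GelMA (-1.30, adjusted p = 0.03499). The calls of these 5 genes were each lost without any 1 of at least 4 libraries, both PLA replicates among them (adjusted p up to 0.399). Of the 3 other beta subunits, Itgb2, Itgb4 and Itgb7, edgeR called 0 in each PLA comparison, with medians of -0.19, -0.03 and -0.27. At an unadjusted p under 0.05 there were 0, 1 and 1 against NC, GelMA and CTS, and DESeq2 called 0, 1 and 1.

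Matrix ligands of the alpha V and alpha 5 receptors followed no single course. Of 17 tested, 4 were called higher in PLA than in NC, 4 higher than in GelMA and 3 higher than in CTS (8.32%, 4.61% and 6.42% of all genes). The median log2 fold changes were 0.06, 0.67 and 0.37. Thbs1, the matrix protein thrombospondin 1, was called in all 3 comparisons. It stood at 2436 and 2211 CPM in PLA, against 680 to 1139 in NC, 699 to 862 in GelMA and 681 to 912 in CTS, with log2 fold changes of 1.28 (adjusted p = 0.005899), 1.57 (adjusted p = 0.003632) and 1.55 (adjusted p = 0.00258). The call against NC was lost without PLA replicate 1 (adjusted p = 0.0553). Tnc, the injury-associated matrix protein tenascin C, was called in all 3 comparisons as well (2.19, 2.46 and 2.67), but its PLA libraries differed, at 148 and 54.6 CPM, and all 3 calls were lost without PLA replicate 1 (adjusted p = 0.0983 to 0.202), that against NC also without NC replicate 3 and that against GelMA also without GelMA replicate 1 or 2.

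Spp1, which encodes osteopontin, separated NC from the 3 scaffolds. It stood at 763 and 748 CPM in PLA, 30.98, 8.31 and 39.01 in NC, 166, 186 and 197 in GelMA and 476, 236 and 1037 in CTS. PLA was higher than NC (log2 fold change 4.85, adjusted p = 0.001172), and the differences from GelMA (2.04, adjusted p = 0.06921) and CTS (0.37, adjusted p = 0.7489) were not called. Fn1, fibronectin, was not called, at 2036 and 2054 CPM in PLA, 1666, 11579 and 2263 in NC, 1570 to 1846 in GelMA and 2288 to 2911 in CTS. Vtn, vitronectin, was low throughout, at 7.92 and 7.05 CPM in PLA and 1.53 to 14.2 elsewhere. Ccn2, a matricellular growth regulator, was called against GelMA (1.92, adjusted p = 0.03301) and CTS (1.90, adjusted p = 0.02531), and Vwf, von Willebrand factor, against NC (1.47, adjusted p = 0.01858) and GelMA (1.58, adjusted p = 0.02186), and each of these 4 calls was lost without either PLA replicate and without at least 1 other library (adjusted p up to 0.2).

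**Figure D5:**
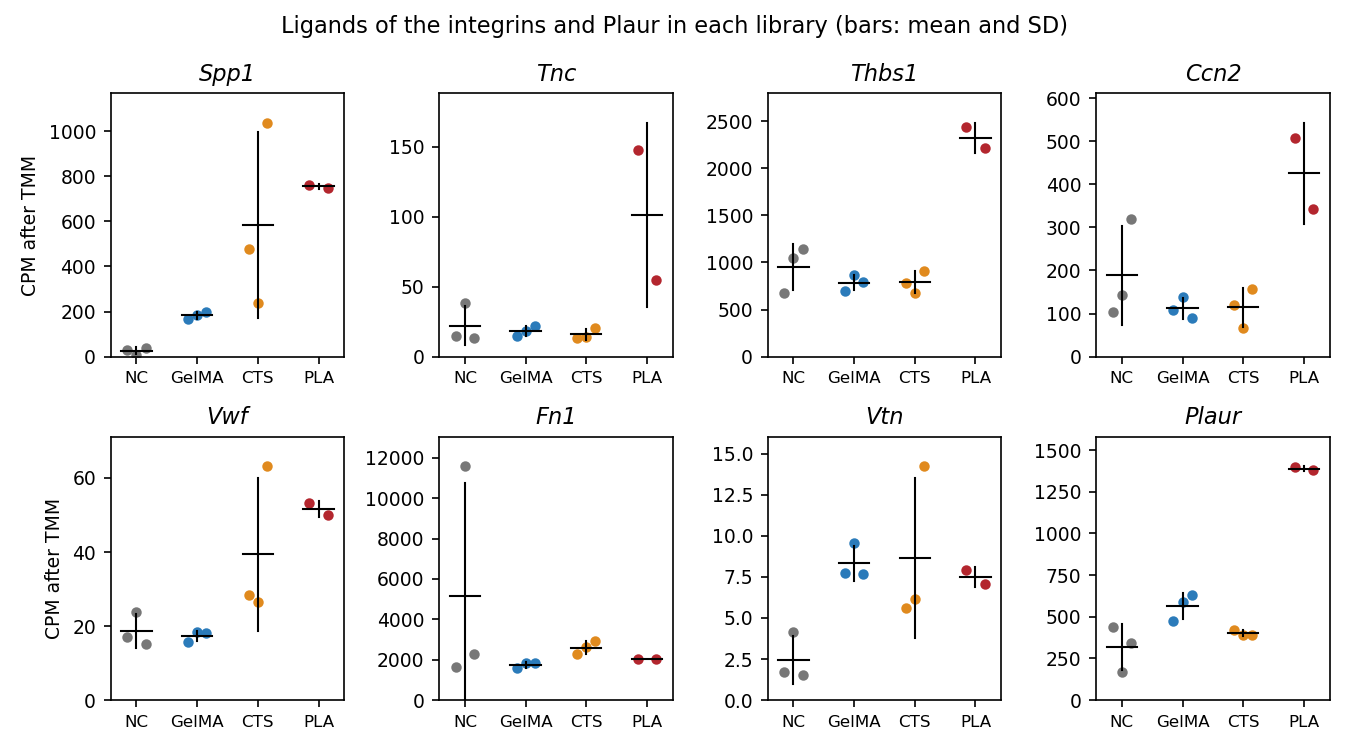
CPM (scaled by TMM) of 7 matrix ligands and of Plaur, a membrane partner, in the 11 libraries, with points for libraries and bars for the group mean and SD, cut off at 0. Thbs1 and Plaur were highest in both PLA libraries, Spp1 was lowest in the 3 NC libraries, and Fn1 was highest in NC replicate 2 (11579 CPM).

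Of the 6 genes of the latent TGF-beta complex, which beta 6 and beta 8 integrins act on, edgeR called 0 between PLA and NC (2 had an unadjusted p under 0.05, and DESeq2 called 2), 1 was called higher than in GelMA (4.61% of all genes) and 1 higher than in CTS (6.42%), too few to set apart from that background. The one against GelMA was Tgfb3 (log2 fold change 1.22, adjusted p = 0.01901) and the one against CTS was Lrrc32 (1.80, adjusted p = 0.02461), which encodes the surface docking protein Garp. Both calls were lost without either PLA replicate, that of Tgfb3 also without any GelMA replicate and that of Lrrc32 without CTS replicate 1 or 2 (adjusted p up to 0.126 and 0.152). The median log2 fold changes of the list were -0.59, 0.34 and 0.19. Tgfb3 averaged 44.9 CPM in PLA, with NC at 89.3, GelMA at 19.3 and CTS at 29.7.

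Among 30 tested genes of the adhesion complex that links integrins to actin and of integrin activation, 3 were called higher in PLA than in NC, 2 higher than in GelMA, and 1 higher and 1 lower than in CTS. With 8.32%, 4.61% and 6.42% of all genes called higher and 3.53% lower than in CTS, these counts lay near the background. The median log2 fold changes were 0.05, 0.40 and 0.36. Ptk2b, the focal adhesion kinase relative Pyk2, was the member called in all 3 comparisons. It stood at 459 and 484 CPM in PLA, 128, 56.3 and 111 in NC, 183, 212 and 239 in GelMA and 123, 136 and 129 in CTS (log2 fold changes 2.26, 1.16 and 1.87, adjusted p = 0.0006431, 0.0323 and 0.002378). Parvb, the integrin-linked kinase partner beta-parvin, was higher than in NC (1.95, adjusted p = 0.008029), at 35.7 and 35.5 CPM against 6.39 to 11.97, and also stood at 28.9 to 37.5 CPM in GelMA. The other calls were Tns3, the focal adhesion protein tensin 3, against NC (1.27, adjusted p = 0.02204), Zyx, the actin-associated zyxin, against GelMA (1.17, adjusted p = 0.02796) and, lower than in CTS, the Rap1 activator Rasgrp2 (-1.60, adjusted p = 0.04606). These 3 calls were lost without either PLA replicate (adjusted p up to 0.121, 0.157 and 0.241), those of Zyx and Rasgrp2 also without any GelMA replicate. Most members of the complex, 27 of 30 against NC, were not called.

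Of 9 membrane partners and uptake proteins of alpha V, 2 were called higher in PLA than in NC, 1 higher than in GelMA and 2 higher than in CTS (8.32%, 4.61% and 6.42% of all genes), with median log2 fold changes of -0.18, -0.01 and 0.17. Plaur, the urokinase receptor, stood at 1398 and 1378 CPM in PLA, 441, 171 and 342 in NC, 476, 586 and 630 in GelMA and 422, 389 and 394 in CTS (log2 fold changes 2.13, 1.30 and 1.79, adjusted p = 0.00164, 0.03123 and 0.005079). Tgm2, a transglutaminase that can act as a fibronectin co-receptor, was higher than in NC (2.44, adjusted p = 0.0006845) and CTS (1.47, adjusted p = 0.01196), at 245 and 177 CPM in PLA against 32.3 to 43.2 in NC and 51.9 to 110 in CTS. The Tgm2 call against CTS was lost without CTS replicate 1 or PLA replicate 1 (adjusted p up to 0.118). Those of Plaur and Ptk2b against GelMA were lost without any 1 of 7 libraries, namely the 3 GelMA replicates, CTS replicates 1 and 2 and both PLA replicates (adjusted p up to 0.155 and 0.174). Over the 6 lists of other integrin genes, ligands and partners, 9 of 35 calls by 6 of 20 genes were kept without any 1 library: those of Spp1, Ptk2b, Plaur, Tgm2 and Parvb against NC, of Thbs1 against GelMA and of Thbs1, Ptk2b and Plaur against CTS. Under the other settings 27 of the 35 calls were lost in at least 1, 17 of them with library size alone. Of the 9, the Plaur call against NC was lost when these 2 groups were fitted alone and that against CTS with limma on log2(FPKM + 1) without the filter, which left 7 kept throughout.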

How the data were processed

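Cd45- cells of 11 libraries in 4 groups were profiled. Per the submitters' processing notes, fastp, HISAT2 (build mRatBN7.2), HTSeq and DESeq were used, with no versions named; the strand setting of the counting is not given in the sources used here. The authors deposited raw counts per gene and FPKM values, and each of the 205408 FPKM values above 0 matched its count divided by length and library total to within 0.001 of itself, without any composition factor.

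The count model was fitted with edgeR 4.0.16 under R 4.3.3 (TMM, filterByExpr with a minimum count of 10, robust quasi-likelihood fit with group as its only term, all 4 groups in 1 fit). Of 23781 genes, 18049 were tested, and Benjamini-Hochberg adjustment was over all of them. Calls needed both a change over 2-fold and an adjusted p below 0.05. limma 3.58.1 (trend, robust, prior count 2) tested log2 CPM of Itgav minus that of each gene. Both fits were checked on simulated data. TMM factors were 0.78 and 0.772 in PLA, 0.804 in NC replicate 2 and 1.05 to 1.14 elsewhere. Reads of overlapping genes could not be told apart. LOC120101588, which overlaps Itgav, had 0 to 52 counts.

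The members and gene lists were chosen with earlier results of these data known. Text names were all members, up to 3 genes per list, direction and PLA comparison by size of fold change among those called, and the 5 genes nearest Itgav; Fn1 and Vtn were added as the main ligands after their values were seen, and the promoter motifs were chosen after the sequences were seen. Of 14 marker lists, those not in the report ran as follows in summed CPM over all libraries, with PLA in brackets: osteoblast 38.2 to 199 (93.3 and 108), endothelial 112 to 271 (215 and 237), eosinophil 3.07 to 690 (3.07 and 4.77) and erythroid 9.94 to 113 (20.1 and 28.9). Alternatives were RLE scaling or library size alone, no filter, DESeq2 1.42.0, the 2 compared groups alone, limma on log2(FPKM + 1) or log2(FPKM + 0.1), a replicate block, no fold threshold, and leaving out each library.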

Additional observations from a re-analysis of the deposited data

How the results depend on the processing

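The higher Itgav level in PLA was called in all 3 comparisons under each alternative run, with log2 fold changes of 2.73 to 3.18 against NC, 2.26 to 2.93 against GelMA and 2.84 to 3.48 against CTS, and of 2.85 to 3.44, 2.68 to 2.95 and 3.21 to 3.51 without single libraries. No value reversed in a called direction. The count of members called, 3 against NC, was 1 with limma on log2(FPKM + 1), with or without the filter. It was also lower, by the loss of Itga5, with library size alone, with these 2 groups fitted alone and with limma on log2(FPKM + 0.1). The counts of 2 against GelMA and 2 against CTS were each 1 with library size alone, limma on log2(FPKM + 1), with or without the filter, and limma on log2(FPKM + 0.1). Without a fold threshold the count against CTS was 3, with Itga5. For CTS against GelMA the count of 1 was 0 under the 3 FPKM fits. Without single libraries the counts ran from 2 to 3 against NC, 1 to 2 against GelMA, 1 to 2 against CTS, 1 to 2 for GelMA against NC and 0 to 1 for CTS against GelMA, and stayed at 0 for CTS against NC. The members that differed from Itgav numbered 4 to 6 against NC and 5 or 6 against GelMA and CTS over all alternatives; 6 arose where Itgb6 entered the fit. With the replicate number as a block, the count for CTS against GelMA was 0 (Itgb8, adjusted p = 0.0501), and the other 5 counts kept their value. No pairing by replicate number was seen. Over 15 pairs with the same number, correlations of deviations ran from -0.108 to 0.118, with 1 over 0.1. Over 30 pairs with different numbers they ran from -0.191 to 0.258, with 2 over 0.1. Of 11 libraries, 5 correlated best with a library of their own number. This check is weak and cannot exclude pairing, since the deviations of the 2 PLA libraries mirror each other. Itgb6 is limited by depth, with at most 10 counts in a library, and with 2 PLA libraries each PLA value left out leaves a lone library assumed to vary like the other groups.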
